A study of Mus musculus with 20 samples.

Results

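The Cyp4 genes encode cytochrome P450 enzymes of the endoplasmic reticulum that place a hydroxyl group on the terminal (omega) carbon of fatty acids and eicosanoids. The products are oxidized further by alcohol and aldehyde dehydrogenases to dicarboxylic acids, which peroxisomes shorten. In mouse liver the Cyp4a genes are known as targets of the nuclear receptor PPARα, Cyp4a12a and Cyp4a12b are known for high expression in males, and Cyp4f enzymes are known for inactivating leukotriene B4, an attractant of neutrophils. The genes described here are the 10 rows of the gene tables whose symbol is Cyp4a10, Cyp4a12a, Cyp4a12b, Cyp4a14, Cyp4a31, Cyp4a32, Cyp4f13, Cyp4f14, Cyp4f15 or Cyp4v3, out of 37681 genes in each table. All 10 entered the tests, which covered the 15578 genes that reached 5 reads in 5 or more libraries of any table.

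Liver RNA came from 10 male C57/BL6 mice (the strain label; C57/B6J in the protocol text) aged 12 weeks, killed 4 hours after an injection. The 5 treated mice (ILB) received IL-1β, a cytokine of acute inflammation, at 20 µg/kg, and the 5 untreated mice (UNT) received saline. The labels give no mutant allele or transgene in either group. Polyadenylated RNA of each mouse was sequenced as 1 Illumina HiSeq and 1 Ion Torrent Proton library, and the reads of each platform were aligned with GSNAP, with STAR, and with STAR followed by Bowtie2, which gave 6 tables of 10 libraries. Totals per library were 10568530 to 12008799 reads on Illumina and 12199528 to 16439683 on Ion Torrent. The hepatocyte marker Alb, the gene of albumin, was at 81016 ± 6956 RPM (SD, n = 5; reads scaled to the library total after TMM normalization) in the untreated Illumina GSNAP libraries. Across genes, the Ion Torrent library of UNT_9584 correlated less with the Illumina library of the same mouse than those of the other 9 mice did (0.195 to 0.247 against 0.614 to 0.762 over the 3 aligners, for deviations from the treatment group). Treatment effects of single genes that rest on UNT_9584 are therefore given with and without it.

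On the mouse assembly NCBIM37 (mm9), 6 of the genes lie near each other on chromosome 4. These are Cyp4a12a at chr4:114971651-115005420, Cyp4a12b at chr4:115084229-115111639, Cyp4a14 at chr4:115158805-115168747, Cyp4a10 at chr4:115190869-115206254, Cyp4a31 at chr4:115236254-115251618 and Cyp4a32 at chr4:115273574-115294207. Of these, Cyp4a14 is on the minus strand and the other genes are on the plus strand. The Cyp4f genes are on chromosome 17, with Cyp4f15 at chr17:32822572-32840297 on the plus strand, and Cyp4f14 at chr17:33042016-33054023 and Cyp4f13 at chr17:33061633-33084347 on the minus strand. Cyp4v3 is at chr8:46391155-46418570 on the minus strand. Each encodes a protein, and their main transcripts have 11 to 13 exons.

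The codons of the heme-binding signature show how near these genes are to each other. A P450 holds its heme iron through a cysteine in the motif F-x-x-G-x-x-x-C-x-G, and the 30 coding bases of this motif are printed below with the cysteine codon in capitals. The motif was found 1 time in each of the 10 coding sequences. In each gene an intron splits these bases, so the positions span the intron between the last 2 coding exons. In Cyp4v3 the split falls after 28 of the 30 bases, and in the other 9 genes it falls after 17.
Cyp4a10, chr4:115202107-115205148, plus strand: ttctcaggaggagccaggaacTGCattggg
Cyp4a31, chr4:115247555-115250553, plus strand: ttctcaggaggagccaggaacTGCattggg
Cyp4a32, chr4:115287485-115294051, plus strand: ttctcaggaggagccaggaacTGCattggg
Cyp4a12a, chr4:115001591-115004451, plus strand: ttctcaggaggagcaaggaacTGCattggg
Cyp4a12b, chr4:115107845-115110674, plus strand: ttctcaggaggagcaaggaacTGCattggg
Cyp4a14, chr4:115159904-115162410, minus strand: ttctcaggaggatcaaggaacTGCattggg
Cyp4f13, chr17:33061887-33062285, minus strand: ttctcagcggggaccaggaacTGCatagga
Cyp4f14, chr17:33042611-33043010, minus strand: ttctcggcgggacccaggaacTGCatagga
Cyp4f15, chr17:32839343-32839746, plus strand: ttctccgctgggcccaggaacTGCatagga
Cyp4v3, chr8:46392461-46393761, minus strand: ttttctgctggacctcgaaacTGTattggt
Cyp4a10, Cyp4a31 and Cyp4a32 were identical over these bases, as were Cyp4a12a and Cyp4a12b. Each gene of the first group differed from each of the second by 1 base, and Cyp4v3 differed from each of the other genes by 9 to 11.

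Over whole coding sequences, Cyp4a12a and Cyp4a12b were 98.5% identical, with 23 mismatches in 1527 bases and an identical run of 342 bases. Cyp4a10 was 96.6% identical to Cyp4a31 and 97.2% identical to Cyp4a32, and Cyp4a31 and Cyp4a32 were 96.0% identical to each other. The next closest pairs were Cyp4f14 and Cyp4f15 and the Cyp4a10 and Cyp4a12 genes, each at 80.0%. A read can therefore fit several of the near-identical genes. Of the 100-base windows along the main transcripts, 35.8% of those of Cyp4a12a and 36.2% of those of Cyp4a12b also occurred in the other gene. The share was 12.7% for Cyp4a10, 13.8% for Cyp4a31 and 20.1% for Cyp4a32, and 0% for Cyp4a14, Cyp4f13, Cyp4f14 and Cyp4f15. Cyp4v3 shared 7.50% of its windows with a transcript annotated to its neighbor Klkb1. Only annotated coding transcripts were searched, and those of Cyp4a31 and Cyp4a32 hold coding bases alone. Per the study, Illumina reads were paired and longer than these windows, and Ion Torrent reads varied in length. The window shares are thus not the shares of reads that fit several genes.

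Coding stretches with differences between the close paralogs are printed below, with the bases that differ within a group in capitals. For Cyp4a12a (chr4:114999233-114999292, plus strand) and Cyp4a12b (chr4:115105486-115105545, plus strand) the stretch is in exon 6, and 4 of its 60 bases differ. For Cyp4a10 (chr4:115192245-115192304), Cyp4a31 (chr4:115237625-115237684) and Cyp4a32 (chr4:115274875-115274934), all on the plus strand, it is in exon 2, and 9 of the 60 positions differ. At most of these positions Cyp4a10 and Cyp4a31 carry the same base and Cyp4a32 differs from both. The stretch thus sets Cyp4a32 apart more than it separates Cyp4a10 from Cyp4a31.
Cyp4a12a: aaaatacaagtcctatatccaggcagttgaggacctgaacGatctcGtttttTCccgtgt
Cyp4a12b: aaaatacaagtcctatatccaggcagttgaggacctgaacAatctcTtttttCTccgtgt
Cyp4a10: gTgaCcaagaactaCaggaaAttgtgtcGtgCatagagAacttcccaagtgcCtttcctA
Cyp4a31: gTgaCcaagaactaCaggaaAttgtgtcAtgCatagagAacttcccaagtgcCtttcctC
Cyp4a32: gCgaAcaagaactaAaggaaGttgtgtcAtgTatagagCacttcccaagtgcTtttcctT
Even here a read that covers only the first part of the Cyp4a12 stretch meets no difference.

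IL-1β-treated livers held less mRNA of 9 of the 10 Cyp4 genes than untreated livers in every table. Cyp4a31, Cyp4a32, Cyp4a10 and Cyp4f15 fell to between 29.9 and 40.9% of the untreated level in the Illumina GSNAP data, and Cyp4a12a, Cyp4a12b, Cyp4f13, Cyp4f14 and Cyp4v3 fell to between 57.6 and 68.3%. Cyp4a14 had a lower mean but did not pass the test. In each of the 6 tables, edgeR's quasi-likelihood test called 9 of the 10 genes lower and 0 higher at an adjusted p below 0.05, and all 10 fitted changes were negative. Of all genes tested on Illumina, 23.9% were called lower and 23.7% higher with GSNAP. STAR gave 22.9% and 22.7%, and STAR + Bowtie2 gave 24.4% and 22.9%. On Ion Torrent the shares were 23.9% lower and 22.5% higher with GSNAP, 21.8% and 20.3% after STAR, and 24% and 22.8% after STAR + Bowtie2. Over the 10 genes the median log2 fold change was -1.01 with Illumina GSNAP and -0.89 with Ion Torrent GSNAP, and it was -0.86 with both other aligners on Ion Torrent, beside a median of all genes tested between -0.01 and 0. Without TMM scaling the median of all genes with a mean of at least 10 reads moved to between -0.13 and -0.09, so the changes given here are relative to TMM-scaled libraries. In bulk liver RNA, fewer cells of a type and less RNA per cell cannot be told apart.

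**Figure D1:**
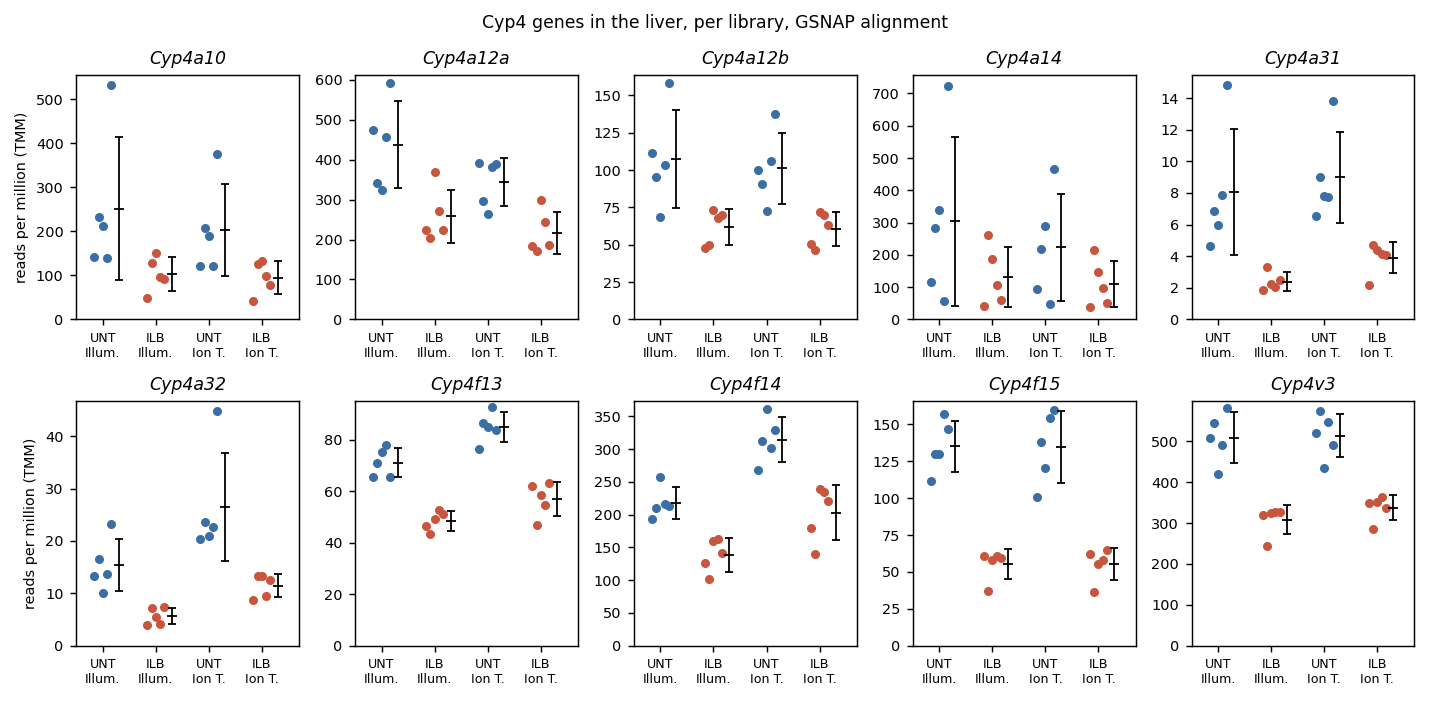
Level in RPM (TMM-scaled, linear axes from 0) of the 10 Cyp4 genes in each library, GSNAP alignment, with untreated mice (UNT, blue) and IL-1β-treated mice (ILB, red) on each platform. Points are libraries and black marks are the mean ± SD of 5; the treated points of Cyp4f13, Cyp4f14, Cyp4f15, Cyp4v3, Cyp4a31 and Cyp4a32 lie below all untreated points on both platforms, and those of Cyp4a14 overlap them.

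Every treated library lay below every untreated library for 6 of the 10 genes in the Illumina GSNAP table, against 17.0% of all genes tested. The number was also 6 with STAR (16.2% of all genes) and with STAR + Bowtie2 (17.4%). On Ion Torrent it was 7 with GSNAP (17.0% of all genes), 6 with STAR (15.6%) and 6 with STAR + Bowtie2 (17.2%). The 6 genes were Cyp4a31, Cyp4a32, Cyp4f13, Cyp4f14, Cyp4f15 and Cyp4v3 in all tables, and Cyp4a12b was added in the Ion Torrent GSNAP table, where its highest treated value (72.1 RPM) was just below its lowest untreated one (72.7 RPM). A log2 fold change below -1 together with an adjusted p below 0.05 was found for Cyp4a10, Cyp4a31, Cyp4a32 and Cyp4f15 in each table, that is for 4 of 10 genes. Of all genes, 9.15% (GSNAP), 8.88% (STAR) and 9.28% (STAR + Bowtie2) met this on Illumina, and 9.43%, 8.95% and 9.22% on Ion Torrent. Without UNT_9584 the number was 3 of 10 (Cyp4a31, Cyp4a32 and Cyp4f15) in 5 tables, and 1 (Cyp4f15) in the Ion Torrent GSNAP table, where Cyp4a31 was at -0.99 and Cyp4a32 at -0.94. The share of all genes was then 9.03% with Illumina GSNAP and 9.08% with Ion Torrent GSNAP.

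Per kilobase of exon, the order of the genes in untreated livers was led by Cyp4a12a with 180.3 ± 45.0 RPM per kb (SD, n = 5) and Cyp4v3 with 172.7 ± 20.8 in the Illumina GSNAP table. Cyp4a10 followed with 119.3 ± 76.8, Cyp4a14 with 117.1 ± 100.7 and Cyp4f14 with 99.1 ± 10.96 RPM per kb. The ranges of neighbors among these 5 overlapped. Below them were Cyp4f15 with 59.2 ± 7.68, Cyp4a12b with 44.8 ± 13.7, Cyp4f13 with 21.3 ± 1.66, Cyp4a32 with 10.005 ± 3.24 and Cyp4a31 with 3.21 ± 1.58 RPM per kb, and here only Cyp4f15 and Cyp4a12b overlapped. In the Ion Torrent GSNAP table Cyp4v3 (174.2 ± 18.1), Cyp4f14 (142.9 ± 15.5) and Cyp4a12a (141.8 ± 24.5) were the highest and overlapped, and the lowest pair was again Cyp4a32 and Cyp4a31. After IL-1β, Cyp4a12a (106.2 ± 27.6) and Cyp4v3 (104.4 ± 12.2) still led the Illumina GSNAP order, and Cyp4a31 was the lowest at 0.956 ± 0.229 RPM per kb. Summed over the 10 genes, the level was 2058 ± 563 RPM in the untreated and 1112 ± 171 RPM in the treated Illumina GSNAP libraries. The untreated sum was 3053 RPM in UNT_9584 and 1721 to 1933 RPM in the other untreated libraries. UNT_9584 was also the highest untreated library for Cyp4a10 and Cyp4a14, so their places above Cyp4f14 may depend on it. The order was not computed without UNT_9584.

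**Figure D2:**
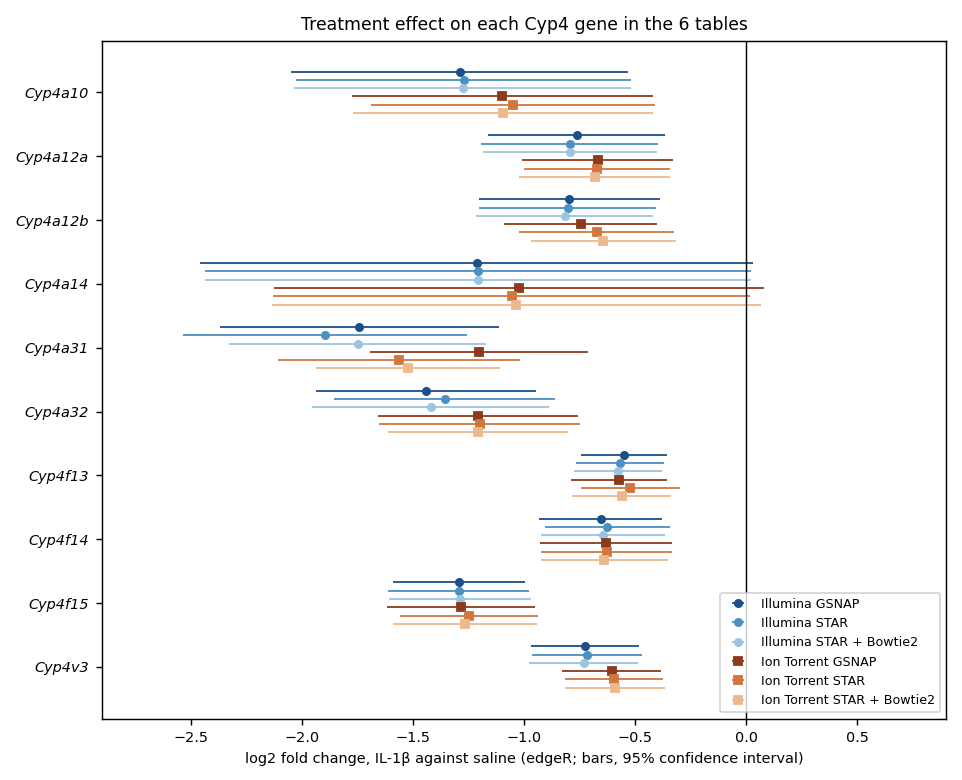
Log2 fold change of each Cyp4 gene, IL-1β against saline, from edgeR in the 3 Illumina tables (circles, blue) and the 3 Ion Torrent tables (squares, brown), with bars for the 95% confidence interval. All 60 points lie left of 0, the intervals of Cyp4a14 cross 0 in each table, and those of the other 9 genes do not.

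Cyp4a10 is the classical fatty acid hydroxylase that PPARα agonists raise in mouse liver. Its Illumina GSNAP levels in the untreated mice were 141.3, 232.5, 212.4, 140.2 and 531.6 RPM (in the order UNT_9574, UNT_9575, UNT_9576, UNT_9580 and UNT_9584, kept below), and in the treated mice they were 48.0, 128.1, 150.8, 96.3 and 91.1 RPM (ILB_9577, ILB_9578, ILB_9579, ILB_9582 and ILB_9583). UNT_9584 stood far above the others, and 1 treated mouse, ILB_9579, exceeded 2 untreated mice. The log2 fold change was -1.29 (SE 0.35, adjusted p = 0.00769), and it ranged from -1.29 to -1.05 over the 6 tables with adjusted p of at most 0.0102. The Ion Torrent GSNAP levels were 120.7, 208.4, 189.9, 121.5 and 375.6 RPM untreated and 40.7, 125.6, 132.5, 97.6 and 78.3 RPM treated, with the same mouse highest and a log2 fold change of -1.10 (SE 0.32, adjusted p = 0.0102). Without UNT_9584 it was -0.82 (adjusted p = 0.0210) in the Illumina GSNAP table and between -0.82 and -0.74 over the tables, still called in each.

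Cyp4a31 and Cyp4a32 are close copies of Cyp4a10 with few reads. Cyp4a31 had 59, 86, 74, 94 and 169 reads in the untreated and 21, 36, 24, 22 and 26 reads in the treated Illumina GSNAP libraries. Its counts are thus small, and the groups did not overlap. The log2 fold change was -1.74 (SE 0.29, adjusted p = 0.000208) in that table, and it was -1.90 with Illumina STAR and -1.20 (SE 0.23) with Ion Torrent GSNAP, the extremes over the tables. Among the 10 genes it was the lowest with each aligner on Illumina. Cyp4a32 had 169, 206, 124, 163 and 265 reads in the untreated and 45, 78, 59, 45 and 77 reads in the treated Illumina GSNAP libraries, again without overlap. Its log2 fold change was -1.44 (SE 0.23, adjusted p = 0.000135) and lay between -1.44 and -1.20 over the tables. Without UNT_9584, which had the most reads of both, the Illumina GSNAP values were -1.40 for Cyp4a31 and -1.24 for Cyp4a32, and both stayed called.

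Cyp4a12a encodes the main arachidonic acid omega-hydroxylase of male mice, and Cyp4a12b is its near-identical neighbor. Cyp4a12a was at 474.6, 341.0, 324.3, 457.7 and 592.1 RPM in the untreated and at 223.0, 203.1, 369.1, 271.0 and 223.1 RPM in the treated Illumina GSNAP libraries, so that only ILB_9579 reached into the untreated range. The log2 fold change was -0.76 (SE 0.19, adjusted p = 0.00345), with -0.80 to -0.67 over the tables. Cyp4a12b was at 111.2, 95.2, 68.3, 103.0 and 158.3 RPM in the untreated and at 47.9, 49.6, 73.5, 67.6 and 70.0 RPM in the treated libraries. Here ILB_9579 and ILB_9583 lay above the lowest untreated mouse, UNT_9576. Its log2 fold change was -0.80 (SE 0.19, adjusted p = 0.00305) and ranged from -0.82 to -0.64, near that of its neighbor. Without UNT_9584 the Illumina GSNAP values were -0.63 for Cyp4a12a and -0.61 for Cyp4a12b, both still called.

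Cyp4a14, also known as a strongly PPARα-inducible gene, varied most between mice. It was at 117.3, 284.4, 339.8, 56.7 and 724.4 RPM in the untreated and at 42.5, 263.0, 185.9, 105.2 and 59.9 RPM in the treated Illumina GSNAP libraries. The coefficient of variation was 86.0% in the untreated and 70.2% in the treated mice, and the lowest untreated mouse, UNT_9580, was below 4 of the 5 treated mice. The log2 fold change was -1.21 (95% confidence interval -2.46 to 0.03, adjusted p = 0.102) in this table and -1.21 to -1.02 over the 6 tables, with adjusted p of 0.0998 to 0.119. The Ion Torrent GSNAP levels were 93.9, 219.1, 289.1, 47.3 and 465.6 RPM untreated and 39.3, 214.1, 146.1, 96.3 and 52.1 RPM treated, with the same mice at the extremes. The outcome depended on single mice. Without ILB_9578, Cyp4a14 was called in all 6 tables (Illumina GSNAP -1.65, adjusted p = 0.0388), likewise without UNT_9580 (-1.48, adjusted p = 0.0328), and without UNT_9584 the value was -0.60 (adjusted p = 0.389).

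The Cyp4f genes changed with little spread between mice. Cyp4f15 was at 111.5, 130.2, 129.8, 156.9 and 146.9 RPM in the untreated and at 60.8, 36.9, 57.7, 60.7 and 59.6 RPM in the treated Illumina GSNAP libraries. The groups did not overlap, 4 treated mice lay close together, and ILB_9578 was the lowest of all. On Ion Torrent (GSNAP) the levels were 101.1, 138.1, 120.5, 154.3 and 159.8 RPM untreated and 61.9, 36.5, 55.6, 58.1 and 64.5 RPM treated, with the same mouse lowest. The log2 fold change was -1.29 (SE 0.14, adjusted p = 3.48e-06), and with -1.29 to -1.25 over the 6 tables it was the most even of those below -1. Cyp4f14, a leukotriene B4 omega-hydroxylase, was at 192.5, 209.5, 257.6, 216.1 and 213.2 RPM in the untreated and at 125.6, 101.3, 159.7, 163.3 and 142.0 RPM in the treated libraries. The groups did not overlap. It changed by -0.65 on the log2 scale (SE 0.13, adjusted p = 0.000748), with -0.65 to -0.63 over the tables. Cyp4f13, a further Cyp4f enzyme, showed the smallest change of the 9 called genes, from 65.6, 70.7, 75.3, 77.8 and 65.6 RPM in the untreated to 46.4, 43.1, 49.1, 52.7 and 51.0 RPM in the treated libraries, a log2 fold change of -0.55 (SE 0.09, adjusted p = 0.000166).

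Cyp4v3, the mouse counterpart of the human gene mutated in Bietti crystalline dystrophy of the retina, was among the most abundant. Its Illumina GSNAP levels were 508.4, 546.3, 419.6, 490.8 and 582.5 RPM in the untreated and 318.8, 244.2, 323.9, 327.1 and 326.5 RPM in the treated mice. The groups were clearly apart, and ILB_9578 was again the lowest. On the log2 scale the change was -0.73 (SE 0.11, adjusted p = 0.000113), and it ranged from -0.73 to -0.72 on Illumina and from -0.61 to -0.59 on Ion Torrent. In the Ion Torrent GSNAP table the levels were 520.4, 574.3, 436.0, 547.3 and 492.3 RPM untreated and 349.2, 285.3, 351.9, 364.6 and 337.2 RPM treated, again without overlap.

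The mice that stood apart within a group were not the same for all Cyp4 genes. Among the untreated mice, UNT_9584 was the highest for all 6 Cyp4a genes in the Illumina GSNAP table, and it was the highest in 6 of 6 tables for Cyp4a10, Cyp4a12b, Cyp4a14, Cyp4a31 and Cyp4a32 and in 4 of 6 for Cyp4a12a. It was also the highest for Cyp4v3 in that table (3 of 6 tables), and for Cyp4f13, Cyp4f14 and Cyp4f15 another mouse was. Among the treated mice, ILB_9578 was the lowest for Cyp4f13, Cyp4f14, Cyp4f15 and Cyp4v3 in all 6 tables, whereas it was the highest for Cyp4a14 in all 6. ILB_9577 was the lowest treated mouse for Cyp4a10 and Cyp4a14 in all 6 tables. The tables of a platform hold the same libraries, so that agreement between them is not independent.

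**Figure D3:**
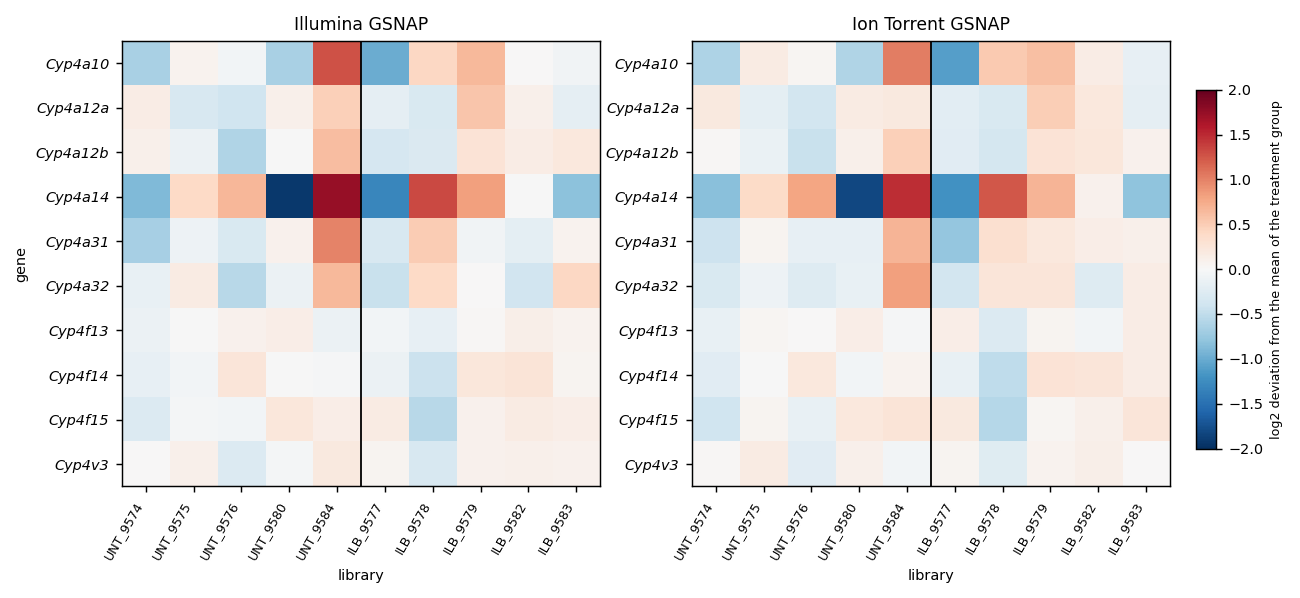
Log2 deviation of each library from the mean of its treatment group for the 10 Cyp4 genes (rows), with the untreated libraries left and the treated libraries right of the black line, for the Illumina and the Ion Torrent GSNAP tables (color scale from -2 to 2). The Cyp4a rows are red in UNT_9584 on both platforms, Cyp4a14 spans the widest range, and the Cyp4f and Cyp4v3 rows are blue in ILB_9578.

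The effects of treatment were next compared between platforms, by a platform-by-treatment term. It was fitted with edgeR for each aligner over its 20 libraries, and the mouse entered as a block. For 0 of the 10 genes did the term pass an adjusted p of 0.05 with any aligner, and limma-voom also called 0. Of all genes, 0.0321% were called with a lower and 0.0321% with a higher Ion Torrent effect under GSNAP. Under STAR the shares were 0% and 0.00642%, and under STAR + Bowtie2 they were 0.0193% and 0.0578%. At an unadjusted p below 0.05 there was 1 Cyp4 gene with GSNAP (7.80% of all genes), 0 with STAR (7% of all genes) and 0 with STAR + Bowtie2 (7.77%). That gene was Cyp4a31, whose log2 fold change was 0.49 higher in the Ion Torrent than in the Illumina GSNAP data (95% confidence interval 0.07 to 0.91, adjusted p = 0.586). Without UNT_9584 the difference was 0.44 (adjusted p = 0.698). Of the 30 terms over genes and aligners, 28 were positive, that is, the decrease was smaller on Ion Torrent. The aligners share their reads and the genes their mice, so these are not independent. For Cyp4f14 the interval of the difference with GSNAP was -0.13 to 0.16, and for Cyp4f15 it was -0.16 to 0.18.

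As reads of close paralogs can be assigned to either gene, the share that a gene took of the reads of its group was compared within libraries. Cyp4a10 took most of the reads of the Cyp4a10, Cyp4a31 and Cyp4a32 group, with a mean of 91.3% ± 2.65 (SD, n = 10) in the Illumina GSNAP and 84.6% ± 3.50 in the Ion Torrent GSNAP libraries. Cyp4a32 took 5.92% ± 1.89 in the former and 11.5% ± 2.95 in the latter, and was higher on Ion Torrent in 10 of 10 mice (two-sided exact sign-flip test, adjusted p = 0.00377). With STAR the Cyp4a32 share was 6.79% on Illumina and 8.61% on Ion Torrent, higher on Ion Torrent in 9 of 10 mice (exact test, adjusted p = 0.00586). Cyp4a12b took 19.5% ± 2.24 of the reads of Cyp4a12a and Cyp4a12b in the Illumina GSNAP libraries. Its share was the largest with STAR + Bowtie2 on Ion Torrent, 25.5% ± 2.42, against 21.2% ± 2.68 with STAR on the same reads, a rise in 10 of 10 mice (exact test, adjusted p = 0.00377). Over the 27 comparisons between aligners and platforms, 19 passed an adjusted p of 0.05, where 10 mice allow no p below 0.00195.

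**Figure D4:**
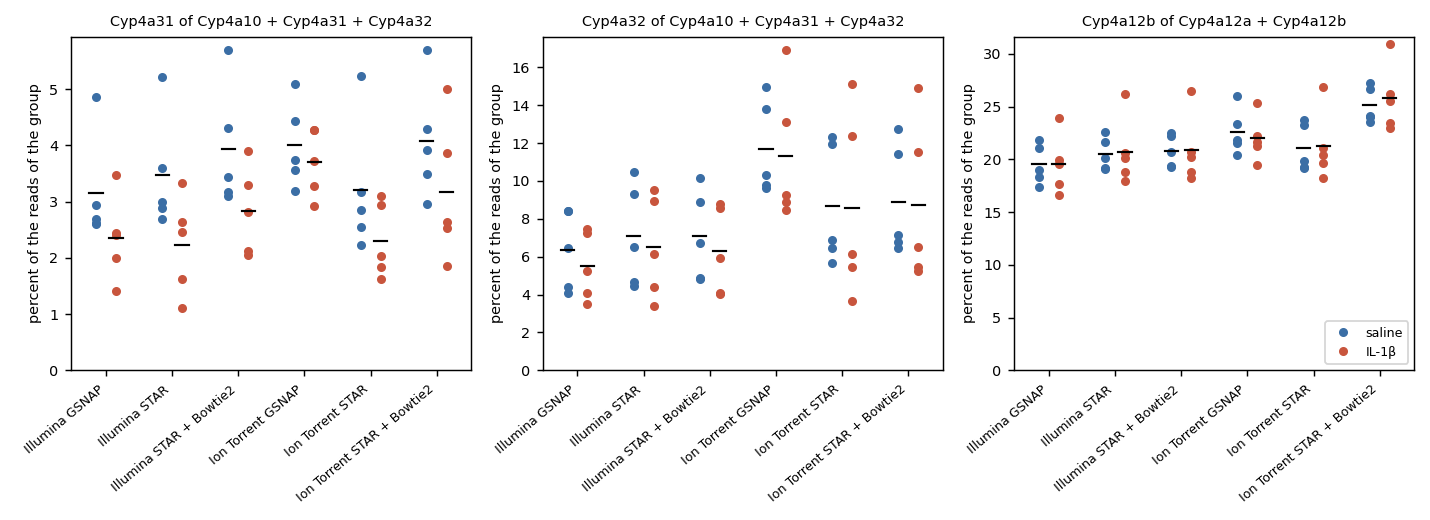
Percent of the reads of its paralog group that Cyp4a31, Cyp4a32 and Cyp4a12b took in each library of the 6 tables, for saline (blue) and IL-1β (red), with black lines for group means and axes from 0. The Cyp4a32 share is highest in the Ion Torrent GSNAP table and the Cyp4a12b share in the Ion Torrent STAR + Bowtie2 table, while the points of both treatments overlap within each table.

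Between treatments, no difference of these shares passed the test. For Cyp4a12b in the Illumina GSNAP table the share was 19.5% ± 2.79 in the treated and 19.5% ± 1.86 in the untreated mice (exact permutation test, adjusted p = 1). The lowest p was that of Cyp4a31 in the Illumina STAR table, 2.23% ± 0.873 in the treated and 3.48% ± 1.03 in the untreated mice (two-sided exact permutation p = 0.0714, adjusted p = 0.893). In the 18 tests of 3 genes in 6 tables, 0 had an unadjusted p below 0.05, and 5 against 5 mice allow no p below 0.00794. A single share at that floor would not have passed after adjustment over the 18 tests. The mean share in the treated minus the untreated mice was negative in all 6 tables for Cyp4a31 (-1.25 to -0.31 percentage points) and Cyp4a32 (-0.85 to -0.11). For Cyp4a12b it had both signs. With the paralogs summed, so that no read depends on the copy it was assigned to, the Cyp4a10 group changed by -1.31 (SE 0.34, adjusted p = 0.00529) and the Cyp4a12 group by -0.77 (SE 0.18, adjusted p = 0.00293) on the log2 scale in the Illumina GSNAP table. Over the 6 tables the sums ranged from -1.31 to -1.07 and from -0.80 to -0.67, with both groups called in each. As Cyp4a10 and Cyp4a12a held most of the reads of their groups, the sums mostly follow these genes. They do not show how Cyp4a31, Cyp4a32 or Cyp4a12b changed on their own. Without UNT_9584 the Cyp4a10 group changed by -0.86 (adjusted p = 0.0121) in the Illumina GSNAP table.

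The position of the 10 genes among all genes tested is shown for the Illumina GSNAP table. Cyp4a31 had 3.37% of all genes below it, Cyp4a32 5.12%, Cyp4f15 6.88%, Cyp4a10 6.91% and Cyp4a14 7.92%. The other 5 lay between 15.02% (Cyp4a12b) and 22.6% (Cyp4f13). Without UNT_9584, Cyp4a10 had 14.3% and Cyp4a14 20.4% of all genes below it, Cyp4a31, Cyp4f15 and Cyp4a32 had 5.73 to 7.48%, and the other 5 had 18.4 to 21.4%.

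**Figure D5:**
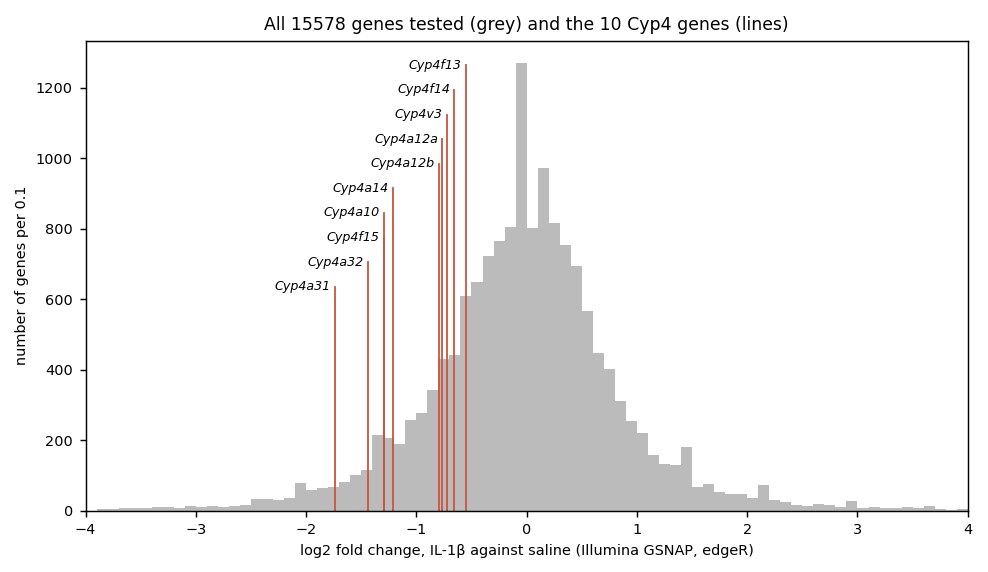
Number of genes per 0.1 of log2 fold change, IL-1β against saline, for the 15578 genes tested in the Illumina GSNAP table (grey, shown from -4 to 4), with lines for the Cyp4 genes, whose heights carry no value. The lines run from -1.74 (Cyp4a31) to -0.55 (Cyp4f13), and the median of all genes is 0.

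Of 14 other Cyp4 genes listed, 7 were tested and 1 was called, higher, in both GSNAP tables, where 23.7% (Illumina) and 22.5% (Ion Torrent) of all genes were called higher. It was Cyp4f17, a further gene of the Cyp4f family, which rose from 5.59 ± 1.15 to 13.7 ± 3.27 RPM (SD, n = 5 each; log2 fold change 1.30, SE 0.19), and was called higher in all 6 tables with 1.01 to 1.30. Summed over the 7, the level was 17.4 to 22.3 RPM in the untreated and 24.5 to 27.5 RPM in the treated Illumina GSNAP libraries. The rise of this sum follows Cyp4f17, and no other gene of the 7 was called in that table.

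Genes that act with the Cyp4 enzymes were read from lists by role, and the counts below stand beside 23.9% of all genes called lower and 23.7% called higher in the Illumina GSNAP table. Of 5 electron donors of microsomal P450s, 4 were called lower in both GSNAP tables. The largest change was that of Cyb5, cytochrome b5, with -0.70 (SE 0.10) in the Illumina table, followed by Cyb5r3, its reductase, with -0.55 (SE 0.15). Por, the P450 reductase, had -0.25 (SE 0.20, adjusted p = 0.338) and was not called in any table. Of 8 genes of the alcohol and aldehyde steps that follow omega-hydroxylation, 6 were lower and 1 was higher on Illumina, and 7 and 1 on Ion Torrent (GSNAP). Aldh3a2, the fatty aldehyde dehydrogenase, was among those that fell (-1.29, SE 0.19), as was the alcohol dehydrogenase Adh4 (-1.33, SE 0.21), whereas Adh7 rose by 2.203 (SE 0.18). Of 18 genes of peroxisomal β-oxidation, 12 were lower and 0 higher in both tables, led by the acyl-CoA thioesterases Acot4 (-2.74, SE 0.33) and Acot3 (-1.99, SE 0.68). The median over this list was -0.65 on Illumina.

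Of 12 genes of PPARα and its cofactors, 2 were lower and 2 higher on Illumina, both below the shares over all genes, and 4 were lower and 2 higher on Ion Torrent (GSNAP). Ppara itself was at 122.8 ± 24.9 RPM in the untreated and 126.9 ± 23.2 in the treated Illumina libraries (0.05, SE 0.15, adjusted p = 0.835), and its partner Rxra had 0.10 (SE 0.15, adjusted p = 0.627). The coactivator Ppargc1a fell (-1.30, SE 0.34) and the mediator subunit Med1 rose (0.51, SE 0.10). Of 16 tested PPARα targets outside the Cyp4 family, 4 were lower and 3 higher on Illumina, and 5 and 3 on Ion Torrent, with a median of 0.14 on Illumina. Their summed level was nevertheless lower in each treated (4504 to 6483 RPM) than in each untreated Illumina library (7328 to 10731 RPM). The lipid droplet gene Cidec rose by 2.24 (SE 0.31), and the thioesterase Acot1 fell (-1.85, SE 0.36).

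The list of growth hormone and androgen regulators and of genes with male-biased expression had 8 lower and 2 higher of 14 on Illumina and 7 and 2 on Ion Torrent. The steroid dehydrogenase Hsd3b5, a male-specific liver gene, fell most of those with at least 50 reads on average (-3.50, SE 0.33), followed by the repressor Bcl6 (-2.02, SE 0.45). Among 8 tested enzymes of leukotrienes and other eicosanoids, 4 were lower and 1 higher on Illumina, and 4 and 2 on Ion Torrent. The gene called higher on Illumina, Alox5ap, which encodes the activating protein of 5-lipoxygenase in leukotriene synthesis, had few reads (20.2 on average) and the largest change of those called (1.40, SE 0.30). Among those with a mean of at least 50 reads, the largest changes were -0.81 (SE 0.12) for the epoxide hydrolase Ephx2 and -0.79 (SE 0.12) for the epoxygenase Cyp2c44.

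Short lists of cell type markers were read in the same way, beside 23.9% of all genes called lower and 23.7% called higher in the Illumina GSNAP table. All 5 tested neutrophil markers of 9 listed were called higher, and their summed level was 44.4 to 92.8 RPM in the treated against 2.18 to 5.15 RPM in the untreated Illumina GSNAP libraries. Among those with a mean of at least 50 reads the largest changes were those of S100a9 (5.35, SE 0.28) and S100a8 (5.27, SE 0.31). With Illumina STAR + Bowtie2 the same sum was 75.2 to 120.9 RPM against 28.2 to 31.6 RPM. There Ltf, a granule gene, had 304 to 339 reads in the untreated and 321 to 375 in the treated libraries, whereas it was at 0 in all untreated libraries of the other Illumina tables. The granule gene Ngp was at 0 reads in the untreated libraries of all 3 Illumina tables. The defining granule genes Mpo, Elane and Camp and the surface gene Ly6g had too few reads to be tested. Of 8 hepatocyte markers 2 were lower and 2 higher, near the shares over all genes. Their sum was 77573 to 88079 RPM in the treated and 93925 to 114951 RPM in the untreated libraries. Alb held most of this sum and fell from 81016 ± 6956 to 56002 ± 4257 RPM (-0.53, SE 0.13), so the sum mostly follows Alb. Cps1, an enzyme of the urea cycle, was the other gene called lower (-0.89, SE 0.13). The largest changes in that list were those of Tat, a tyrosine aminotransferase induced by glucocorticoids (1.51, SE 0.23), and Hnf4a, a hepatocyte transcription factor (1.04, SE 0.09). Of the Kupffer cell list 4 were lower and 1, Marco (2.19, SE 0.39), higher of 8, with a sum of 74.8 to 174 RPM treated and 138 to 236 RPM untreated. Of 8 lymphocyte markers 3 were tested and 2 were lower (0.48 to 0.84 RPM treated, 0.75 to 2.46 untreated). Of 7 endothelial markers 3 were lower and 2 higher (94.2 to 153 against 121 to 182 RPM), and of 6 stellate cell markers 2 were lower (167 to 265 against 240 to 304 RPM). Of 5 cholangiocyte markers 2 were higher (44.4 to 77.3 against 46.4 to 64.3 RPM). The part of these cell types in the Cyp4 values was not tested.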

How the data were processed

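The values deposited by the authors are whole-number counts per gene in 6 tables (2 platforms by 3 aligners). Per the labels and the study's methods, reads were aligned to mm9 with GSNAP, STAR 2.5.1b, or STAR followed by Bowtie2 2.2.9, and PORT removed rRNA and mitochondrial reads, drew reads at random until libraries matched the smallest, and counted Ensembl v67 genes. Tables were normalized separately, so levels were compared within a table, except the shares within a library. Whether an Illumina count is a read or a pair is not given in the sources used here. All 60 count columns were used.

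Groups followed the sample titles. Each table was fitted with edgeR 4.0.16 (quasi-likelihood test, TMM, Benjamini-Hochberg over 15578 genes), and standard errors were derived from the F statistic. Alternatives were DESeq2 1.42.0, limma-voom (limma 3.58.1), an exact rank-sum test on counts without TMM scaling, other scalings and filters, paralogs summed and leaving out each mouse. The platform-by-treatment term used the mouse as a block, since a number marks 1 liver RNA on both platforms. Each Illumina library was compared with the Ion Torrent libraries of its own treatment group. It correlated best with that of its own mouse, also for 9584. Libraries of different treatment groups were not compared. R 4.3.3, Python 3.11.15 and Biopython 1.88 were used. Positions and sequences are those of GENCODE M1 on NCBIM37, in which all 10 genes were found; positions in the tables are padded and were not used. On simulated counts of the Illumina GSNAP comparison (15578 genes), edgeR called 91 of 100 genes with a log2 change of -0.8 and 100 of 100 with -1.5, and 9 unchanged genes. For the GSNAP platform-by-treatment term it called 34 of 100 with a difference of 0.8 and 97 of 100 with 1.5. The simulation used the same dispersion for all genes, changed only genes with a mean of at least 50 reads, and held no effect of the mouse. In the Illumina GSNAP table the coefficients of variation of the untreated mice ran from 7.80% (Cyp4f13) to 86.0% (Cyp4a14). The simulated counts are therefore not the power for a given Cyp4 gene or for the blocked term.

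The 10 genes and the gene lists were chosen with earlier results of these data known. Of each list, the genes named with values are those with the largest and second largest absolute change in the Illumina GSNAP table among called genes with a mean of at least 50 reads, plus Ppara, Rxra, Por and Aldh3a2. Alb, Cps1, Alox5ap, Ngp, Ltf and genes too low to test were added after their values were seen. Promoter and protein sequences were not used.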

Additional observations from a re-analysis of the deposited data

Results flagged for a closer look

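Within groups of 5 libraries, the highest or lowest value was set apart from the others, by Dixon's criterion (gap to the nearest value over the range above 0.71), in 13 of 120 groups of the 10 genes, 6 tables and 2 treatments. Chance gives this in about 1 in 20 groups, and groups of the same libraries under 3 aligners are not independent. The untreated UNT_9584 was high for Cyp4a10 in the Illumina tables, at 531.6 RPM with GSNAP (next 232.5), 629.5 RPM with STAR (next 280.2) and 578.4 RPM with STAR + Bowtie2 (next 263.4). It was also high for Cyp4a31 in the Illumina STAR + Bowtie2 table (19.5 RPM, next 10.5) and for Cyp4a32 in the Ion Torrent GSNAP table (44.7 RPM, next 23.6).

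The treated ILB_9578 was low for Cyp4f15, at 36.9 RPM (next 57.7), 33.7 RPM (next 55.3) and 33.3 RPM (next 53.5) in the Illumina GSNAP, STAR and STAR + Bowtie2 tables. For Cyp4v3 it was low in the same tables at 244.2 RPM (next 318.8), 237.2 RPM (next 310.5) and 235.9 RPM (next 304.7), and in the Ion Torrent STAR + Bowtie2 table at 273.3 RPM (next 325.6). The treated ILB_9577 was low for Cyp4a31 in the Ion Torrent GSNAP table, at 2.204 RPM (next 4.05).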

How the results depend on the processing

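The 9 calls of lower expression held under DESeq2, limma-voom, the exact rank-sum test, other scalings and other filters in each table, and all 1050 log2 fold changes of single genes under an alternative were negative. The rank-sum test ranked counts without TMM scaling. In the Illumina GSNAP table the counts of Cyp4a10, Cyp4a12a and Cyp4a12b did not overlap between treatments, whereas their RPM did. With a log2 fold change beyond 1 also required, 4 genes were called in each table. An alternative chosen after seeing the data left out each mouse under this threshold and gave 1 to 5 genes with Ion Torrent GSNAP and 3 to 5 in each other table, the lowest without UNT_9584, where Cyp4a10 missed it throughout. Without ILB_9577 Cyp4a10 missed it in the 3 Ion Torrent tables, and without ILB_9583 in the STAR one. With paralogs summed 6 of 7 features were called. Without each mouse in turn, 9 to 10 genes were lower in every table, 10 where ILB_9578 or UNT_9580 was left out. Cyp4a14 was also called in the Ion Torrent GSNAP table when genes with 1 read were admitted (-1.02, adjusted p = 0.0476). Both paralog sums stayed called without each mouse (2 to 2 in each table).

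Mouse numbers pair the platforms, and the platform-by-treatment term called 0 genes with the replicate block, without it, with limma-voom, with summed paralogs and without each mouse (0 to 0). Without the block the term of Cyp4a31 with GSNAP was 0.54 (adjusted p = 1), against 0.49 with it. Paralog shares that differed between treatments numbered 0 (0 to 0 without each mouse). Of those compared between aligners and platforms, 19 to 20 of 27 differed without each mouse, and 19 per kilobase.

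The exact rank-sum test called 6 of the pathway genes higher in place of 10 in each Illumina table, and 5, 6 and 6 in the Ion Torrent GSNAP, STAR and STAR + Bowtie2 tables in place of 11, 11 and 12. The rank-sum test used counts without TMM scaling, so both the test and the scaling differed from the edgeR fits. The cause was not tested. Counts of Cyp4a31 and Cyp4a32 were the lowest, so their values carry the largest counting error.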
